A study of Mus with 438 samples.

Results

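The genes described here are those that build and supply the cilium and move cargo along microtubules. They were taken by symbol as every gene of the deposited expression table that begins with Ift, Bbs, Cep, Kif, Dync, Nphp or Tctn followed by a digit, which gave 82 of 10390 genes. There were 31 Cep, 19 Kif, 14 Ift, 8 Bbs, 6 Dync, 2 Nphp and 2 Tctn genes. By function, 29 belonged to the centrosome and centriole, 11 to the anterograde transport complex IFT-B, 3 to the retrograde complex IFT-A, and 6 to the BBSome. A further 2 encoded chaperonin-like BBS proteins, 3 kinesins of the cilium, 2 the dynein of the cilium, 4 cytoplasmic dynein, 11 axon and vesicle kinesins or their partner, 5 mitotic or microtubule-depolymerising kinesins, and 5 the transition zone. The last, Cep83os, is a long noncoding RNA beside Cep83. The symbol rule also took in Kif1bp, which encodes a kinesin-binding protein and is not itself a kinesin.

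RNA was sequenced from single photoreceptors picked under a microscope from the superior or inferior retina of C57BL/6 mice. Control cones were Trb2Cre-het:Ai6, which carry 1 Trb2Cre allele (Cre placed in Thrb, the gene of the thyroid hormone receptor of cones) and a fluorescent Cre reporter. They numbered 26 superior and 30 inferior cells on postnatal day 2 (P2), 24 in each zone at P8 and again at P21, 26 and 21 at P60, and 53 and 50 in a collection labelled 2 months (2m). Knockout cones (Trb2Cre-KO:Ai6, which lack the cone receptor and carry the same reporter) were taken at 2m only, with 50 superior and 48 inferior cells, and 29 rods came from tgNrl:gfp mice at 2m. All cones were chosen by Ai6 fluorescence, and the rods come from a different reporter line. The labels name no animal, so the cells of an age, zone and genotype were averaged to 1 value, and the spread between animals is unknown. Separate region lists held sites bound by the tagged receptor in embryonic day 18 (E18) retina (ThrbHAB:BirA against BirA) and sites of open chromatin listed as induced or suppressed in purified cone nuclei at P30 (Trb2Cre-het and Trb2Cre-KO with Sun1-gfp).

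A photoreceptor outer segment is a modified primary cilium, and all of its membrane and signalling proteins must pass through the narrow connecting cilium from the cell body. Kinesin-II (Kif3a with Kif3b or Kif3c) carries IFT trains outward, the dynein with heavy chain Dync2h1 brings them back, and the BBSome rides on these trains to sort and remove membrane proteins. The transition zone proteins such as Cep290, the nephrocystins and the tectonins form the gate at the base of the cilium, and mutations in many of these genes cause retinal degeneration in people.

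Values are CPM (read counts scaled by the authors to the size of the library), and a gene's level in a group is its mean CPM over the cells. Cells had between 897893 and 3.26e+07 reads. The targeted gene, Thrb, had means of 43.2 and 33.9 CPM in the knockout (superior, inferior) and of 170 to 897 CPM in the 10 control groups. The summed level of 12 cone genes lay between 11937 and 112868 CPM in the cone groups and was 1394 CPM in rods, where 10 measured rod genes summed to 135295 CPM against at most 20633 in cones. Among the cones, 13 cells had few cone transcripts or more rod than cone transcripts, up to 5 in a group (P8 inferior), and counts were repeated without them. Superior P60 libraries 3 and 14 were near identical (Pearson r of 0.996 over genes, next highest pair 0.467) and were counted as 1 cell.

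All 82 genes together gave between 3972 CPM (superior knockout cones) and 5720 CPM (inferior P2 cones), with 4845 CPM in rods. The IFT-B sum showed no order by age and ran from 449 CPM in superior P21 cones to 843 CPM in superior 2m controls. The centrosome and centriole genes summed to 1513 and 1594 CPM at P2 (superior and inferior), to 1010 and 940 CPM in 2m controls, to 756 and 894 CPM in the knockout and to 486 CPM in rods. The 6 BBSome genes gave the opposite order in rods, with 1758 CPM against 496 to 951 CPM in the 12 cone groups. The cytoplasmic dynein genes were lowest in rods (224 CPM) and in superior knockout cones (256 CPM), against 313 to 659 CPM in control cones. No replicate stands behind these sums, so they describe the libraries at hand.

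**Figure D1:**
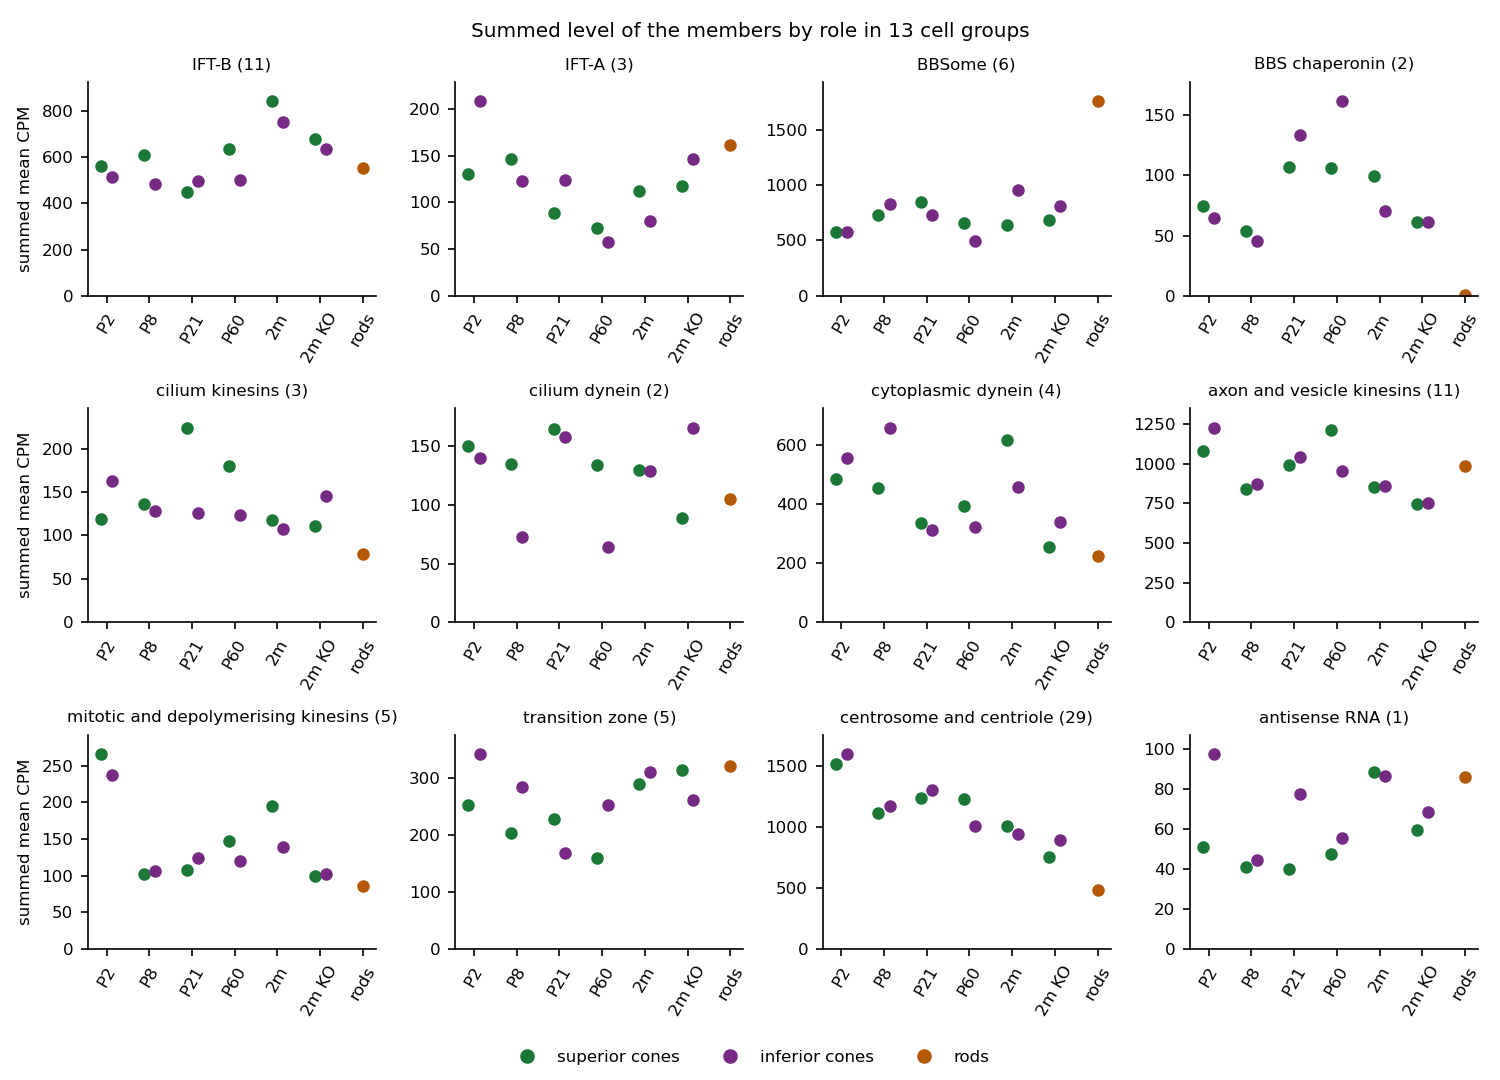
Summed group mean CPM of the genes of each role (number of genes in brackets) in 13 cell groups, on linear axes from 0; each point is 1 group, green for superior cones, purple for inferior cones and orange for rods. BBSome genes were highest in rods (1758 CPM), and centrosome and centriole genes were highest at P2 and lowest in rods (486 CPM).

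Most of these genes were caught in a minority of cells. The median number over 1 CPM in a cell was 30 and 33 of 82 at P2 (superior and inferior), 30.5 and 31 at P8, 25.5 and 23 at P21, 28 and 25 at P60, and 28 and 23.5 in 2m controls. Knockout cones had 19 and 21, and rods had 8. Cells of the same groups had a median of 4154.5 and 4328.5 genes of any kind over 1 CPM at P2, 2850.5 and 2856.5 in knockout cones and 1298 among rods. The counts thus moved with the number of genes seen in a cell. Bbs4, Cep290, Ift20, Kif1b and Kif1bp were the 5 genes over 1 CPM in at least 50% of the cells of every cone group, and 37 genes reached that share in none of the 12 cone groups. In rods a single cell supplied at least 50% of the group's sum for 48 of the 82 genes, against 11 to 31 in the cone groups. A group mean of these genes is therefore carried by few cells. Such counts were not made over all genes, so whether this set differs from other genes in them was not tested. In the 2m collections many values were above 0 but at or below 1 CPM, namely 24.6% to 28.9% in the 5 groups of that age, against 4.47% to 12.1% in the P2 to P60 groups. How far values just over 1 CPM are of the same kind was not tested, so counts over 100 CPM are given as well for Cep170b, Bbs7, Bbs4 and Cep63. Values over 100 CPM made up 6.60% in rods, 14.1% and 15.4% in knockout cones and 18.5% and 14.7% in their 2m controls.

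In receptor-knockout cones the gene that stood out was Cep170b, which encodes a centrosomal and microtubule protein related to Cep170. Means in the knockout were 25.1 CPM (superior) and 42 CPM (inferior). The 2m controls had 174 and 120 CPM, and the P60 controls 387 and 186 CPM. Younger controls had 185 and 138 CPM (P2), 230 and 327 CPM (P8) and 278 and 322 CPM (P21), so each of the 10 control group means lay above both knockout means. It was over 1 CPM in 6 of 50 superior knockout cells (12%; exact Clopper-Pearson 95% interval 4.53% to 24.3%) and in 6 of 48 inferior ones (12.5%; 4.73% to 25.2%). The shares were 69.8% (55.7% to 81.7%) and 58% (43.2% to 71.8%) in 2m controls and 80.8% and 66.7% at P60. These intervals cover the counting of cells only, and reads had no molecular identifiers. Cells over 100 CPM numbered 5 of 50 and 6 of 48 in the knockout and 32 of 53 and 19 of 50 in 2m controls. The few knockout cells that held the transcript reached 481 and 582 CPM, within the range of control cells.

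**Figure D2:**
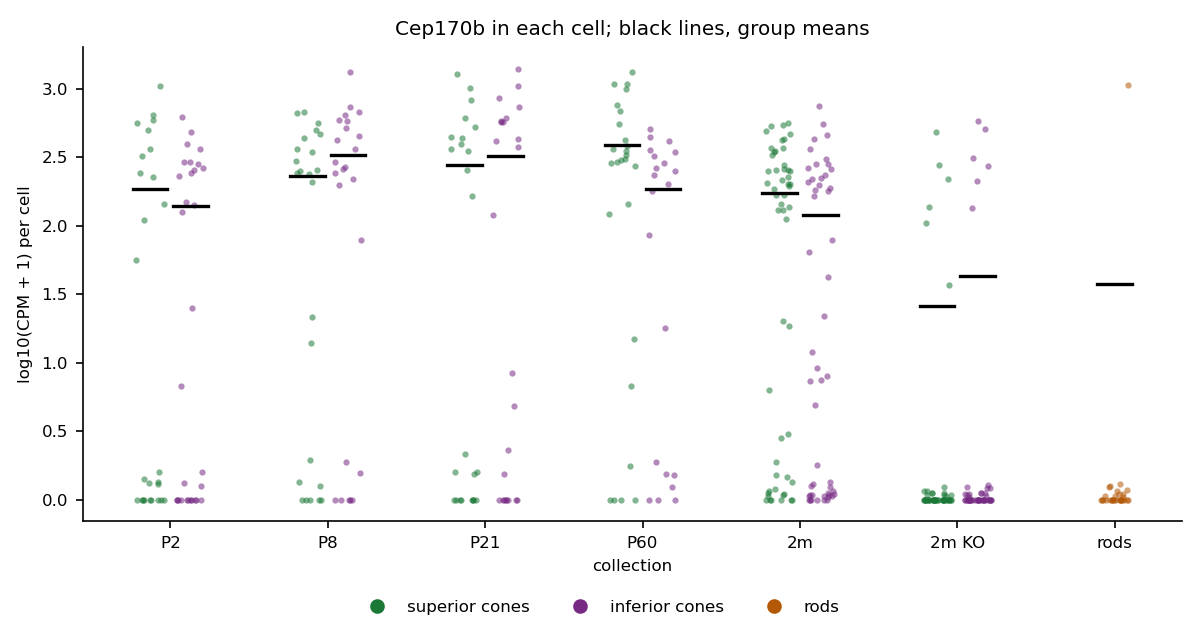
Cep170b in each cell as log10(CPM + 1), by collection; green points are superior cones, purple inferior cones and orange rods, and black lines are group means. The 2m knockout cones (2m KO) lie mostly at or near 0, with 12% and 12.5% of cells over 1 CPM.

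As 1 knockout collection was at hand, no test was made. A gene was called where its mean, as log2(mean CPM + 1), differed at least 2-fold the same way in both zones from both adult control collections. The higher group also needed a mean of at least 10 CPM and more than 1 CPM in at least 25% of cells. On this rule 1 of 36 genes that met the minimum was lower, Cep170b (log2 ratios of -2.74 and -1.49 against 2m controls and -3.89 and -2.12 against P60 controls, superior and inferior), and 0 were higher. Over all 4410 genes that met it, 0.93% were lower and 0.408% higher, so the share in this set, 2.78% lower, rests on a single gene. For comparison the 2 adult control collections differed from each other by the same size in both zones for 3 of 44 genes (Cep250 higher, Cep290 and Dync1h1 lower in P60), beside 5.18% and 5.24% of all genes. Without the doubtful cells Cep170b was again the only call.

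No other cilium or motor gene met the rule in the knockout. The light intermediate chain of cytoplasmic dynein, Dync1li1, had knockout means of 106 CPM (superior) and 186 CPM (inferior). Its 2m control means were 439 and 264 CPM, and its P60 control means 239 and 185 CPM. The inferior knockout mean thus lay beside that of P60. For Kif1bp the knockout had 230 and 190 CPM, 2m controls 331 and 280 CPM and P60 controls 465 and 385 CPM, so the difference from 2m was below 2-fold. Kif2a, a kinesin that takes microtubules apart at their ends, went from 94.9 and 82.4 CPM (2m controls) or 59.5 and 54.1 CPM (P60 controls) to 45.2 and 28.6 CPM, and also missed the limit. The kinesin-II motor Kif3a was at 76.2 and 89.3 CPM in the knockout and at 81.7 and 70.7 CPM in 2m controls. Bbs4, a BBSome subunit that binds centriolar satellites, was at 351 and 351 CPM in the knockout and 281 and 399 CPM in 2m controls. Ift81, a tubulin-binding IFT-B subunit, was at 154 and 99.8 CPM in the knockout and 124 and 124 CPM in 2m controls. The median log2 ratio over all 82 genes was -0.31 and -0.20 against 2m controls (all genes, -0.00 and 0.11) and -0.03 and 0.31 against P60 controls (all genes, -0.05 and 0.04), so in inferior cones its direction turned with the control collection, while in superior cones it was below 0 against both.

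Among 87 other measured genes of IFT, the BBSome, dynein and dynactin, kinesin partners, transition zone, axoneme and lipid-anchored cargo carriers, 53 met the minimum in the knockout comparison and 0 were called. In the same comparison 3 of 12 cone genes were called lower (Arr3, Opn1mw and Thrb itself). Of the 6 Müller glia markers measured, Apoe was called higher, at 102 and 219 CPM in the knockout against 46.5 and 79.8 CPM in 2m controls. The summed glia markers were 170 and 249 CPM in the knockout, below 2m controls (243 and 378 CPM) and above P60 controls (89.8 and 99.2 CPM). Their part in the knockout values was not tested. Among all genes, Xist was also called higher in the knockout, and the sex make-up of the collections was not examined.

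Cep170b also lay amid regions of both deposited kinds. In the GRCm38/mm10 build the gene spans chr12:112721514-112746592, and 7 of the P30 regions listed as induced fell within 50 kb of it. Of these, 4 lay inside the gene interval, 2 lay 127 and 664 bases past its end coordinate, and 1 lay 31475 bases before its start coordinate. At least 7 such regions were found at 59 of 10143 genes that could be placed. The E18 list of receptor-bound regions held 2 there. The region chr12:112743491-112743790, inside the gene, overlapped the induced region chr12:112743181-112744020 over 300 bases. The region chr12:112689780-112690079, before the gene, overlapped the induced region chr12:112689782-112690039 over 258 bases. By the p-value the authors deposited with the list they ranked 958 and 787 of 4590. None of the suppressed regions was within 50 kb. The region lists carry no values per sample, and the rule by which the authors made the induced and suppressed lists is not given in the sources used here. A region near a gene is a matter of position and shows no regulation.

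Across the whole set, nearness to regions was close to that of other genes. Receptor-bound E18 regions lay within 50 kb of 34 of the 82 genes (41.5%), beside 39% of all placed genes. Induced P30 regions lay near 34 genes (41.5%) beside 35.5%, and suppressed regions near 11 genes (13.4%) beside 13.2%. The set's gene intervals were longer (median 44.7 kb against 23.6 kb), which gives a window more room. Both an induced and a bound region lay near 21 of the 82 genes (25.6%; all placed genes, 22.4%). Both lay near 28 of the 40 placed genes that were lower in the knockout (70%), Cep170b among them. Those 40 genes had first met the minimum in adult control cones. The share among all genes that met it, and the interval lengths of the 40, were not taken, so the 70% has no matched comparison. At 14 of the 82 genes an induced and a bound region overlapped: Cep170b, Cep19, Cep350, Cep41, Cep85, Dync1h1, Dync2li1, Ift43, Ift81, Ift88, Kif16b, Kif1a, Kif22 and Kif5c. Overlaps were not counted for all placed genes, so whether 14 is many for such a set was not tested. Kif1a, the fast synaptic-vesicle kinesin, had such an overlap inside the gene (bound region chr1:93051955-93052254), and its mean was 40.8 and 83.1 CPM in the knockout against 72.0 and 42.8 CPM in 2m controls. Nphp4, a transition zone gene, had 10 induced regions nearby, and was at 11.6 and 8.40 CPM in the knockout and 13 and 26.7 CPM in 2m controls.

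Young cones had more RNA of 2 centrosome genes and of a mitotic kinesin than adult cones, on a rule of size alone. At P2 against both adult control collections and in both zones, with a 4-fold limit, 3 of 53 genes that met the minimum were higher (Cep68, Cep170 and Kif20a), beside 2.66% of 5943 genes, and 0 were lower, beside 2.22%. Cep68, which tethers centrioles to each other, had 161 and 93.2 CPM at P2, 31.1 and 10 at P8, 2.77 and 1.18 at P21, 21.7 and 2.76 at P60 and 14.8 and 15.8 in 2m controls (superior and inferior). Both P2 means were above all 8 later control means. Cep170, a protein of the mature centriole's appendages, was at 92.1 and 58.6 CPM at P2, 19.1 and 10.5 at P8, 5.16 and 0 at P21, 0.394 and 11.6 at P60, and 13.2 and 9.07 in 2m controls. It was over 1 CPM in 42.3% and 30.0% of P2 cells and in at most 9.52% of the cells of each P21, P60 and 2m control group. Kif20a, a kinesin of the dividing cell's midzone, was at 79.9 and 71.5 CPM at P2, 23.4 and 17.7 at P8, 18.2 and 18.9 at P21, 15.2 and 15.2 at P60, and 8.91 and 5.77 in 2m controls.

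**Figure D3:**
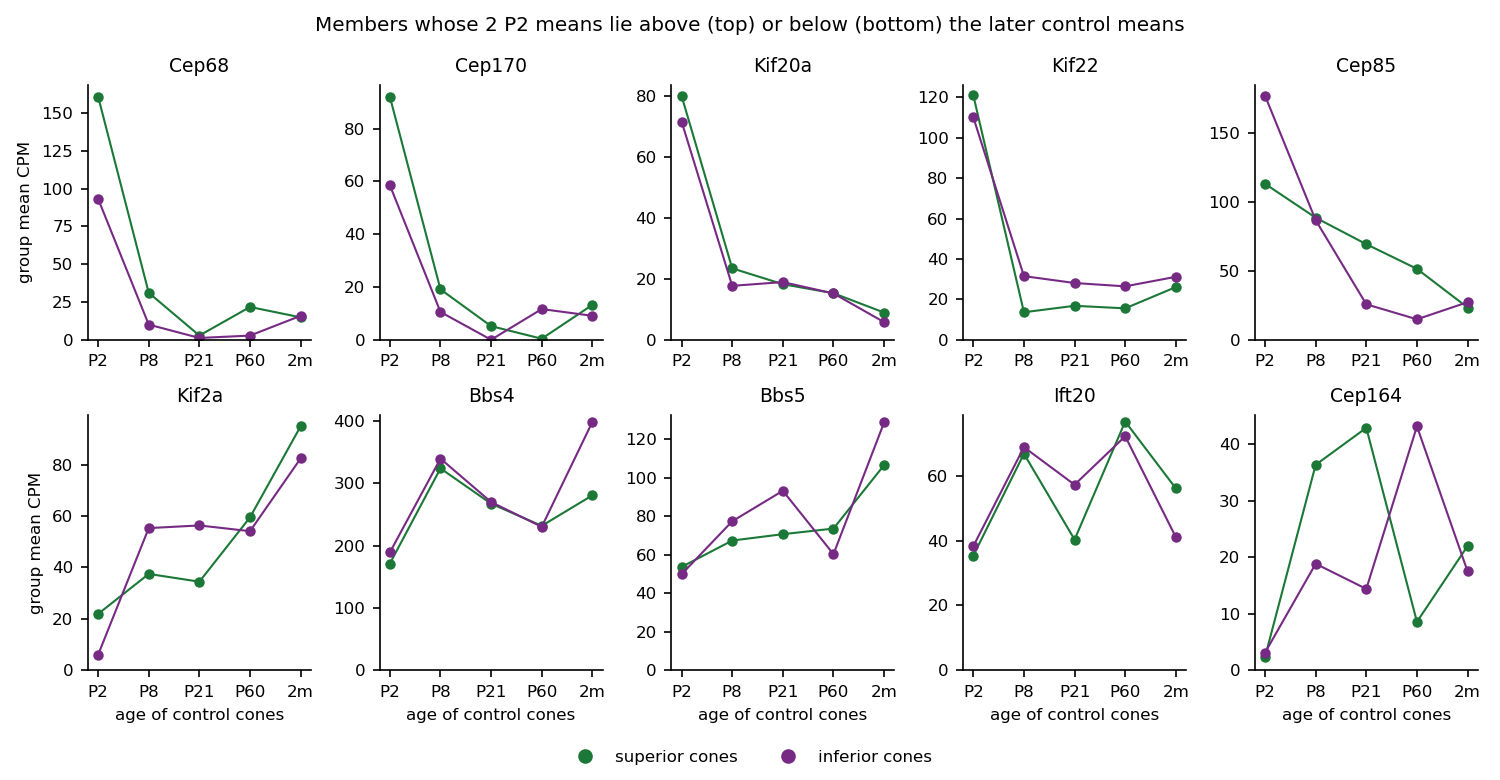
Group mean CPM over the 5 control collections for 5 genes whose P2 means in both zones lie above every later control mean (top) and 5 whose P2 means lie below (bottom), on linear axes from 0; green is superior and purple inferior, and lines join the collections of a zone. Kif20a was at 79.9 and 71.5 CPM at P2 and 8.91 and 5.77 CPM at 2m, while Kif2a was lowest at P2 (21.9 and 5.95 CPM).

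The P2 calls depended on how values were scaled and averaged. Under TMM scaling, under log values averaged over cells and with a pseudocount of 10, 0 of the 3 were called, although all 3 stayed higher at P2 (mean log2 ratios under TMM of 2.95 for Cep68, 2.35 for Kif20a and 3.0 for Cep170). Markers of other cells were also high at P2. The 6 measured Müller glia markers, which progenitors share, summed to 1174 and 1022 CPM at P2 against 68.1 to 378 CPM in all later control groups, with Apoe at 647 and 697 CPM. Of 16 cell cycle genes 4 are in the table, and they did not move together. Ccna2 met the 4-fold rule at P2 (99.4 and 178 CPM, against 2.86 to 18.8 CPM in later controls). Cenpe (18.9 and 37.9 CPM at P2) and Mcm2 (118 and 77.9 CPM) did not meet it. Pcna was at 49.4 and 25.1 CPM at P2 and higher, at 145 and 127 CPM, in 2m controls. The part of these cells or transcripts in the P2 values was not tested.

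At P2 the order of group means gave a broader picture. Both P2 means were above all other control means for 11 of the 80 genes that averaged 5 CPM or more (13.75%, beside 14.9% of all 10136 genes). These were Kif5b, Tctn2, Cep57, Kif22, Cep85, Cep95, Cep68, Kif20a, Cep170, Cep131 and Cep162. Kif5b, the ubiquitous conventional kinesin, was at 204 and 276 CPM at P2 and between 48.9 and 165 CPM later. Both P2 means were below all others for 5 genes (6.25%, beside 6.23%): Bbs4, Bbs5, Ift20, Kif2a and Cep164. Bbs4 was at 171 and 189 CPM at P2 and between 230 and 399 CPM later. Ift20, the IFT-B subunit that also sits at the Golgi, was at 35.4 and 38.3 CPM at P2 and between 40.4 and 76.9 CPM later. Kif2a was at 21.9 and 5.95 CPM at P2 and rested there on 1 superior cell of 473 CPM, without which that mean was 3.79 CPM. It met a 2-fold but not the 4-fold limit. Cep164, needed for the docking of the basal body, was at 2.33 and 3.09 CPM at P2 and between 8.54 and 43.2 CPM later. No gene of the set met the 4-fold rule at P8 (0 of 50 in either direction, beside 0.636% higher and 0.344% lower).

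Over the 5 control collections, P21, P60 and 2m were tested against P2 and P8 with limma on log2(mean CPM + 1), zones averaged, and p-values adjusted by Benjamini-Hochberg over 10136 genes. Of 80 genes 0 passed an adjusted p of 0.05, beside 0.0987% higher and 0.0888% lower among all genes. At an unadjusted p below 0.05 there were 9 (11.25%, beside 14.5% of all genes). The quasi-likelihood test of edgeR on recovered reads also called 0, and DESeq2 called Kif3c higher (1 of 80, beside 2.24% of all genes) and Cep85 lower (1 of 80, beside 1.14%). Cep85, Kif21b, Ift80 and Bbs10 are given because of their values. The smallest adjusted p was that of Cep85, a centrosome gene, which had a mean of 116 CPM at P2 and P8 and 35.3 CPM later (log2 difference -1.81, SE 0.45, limma adjusted p = 0.139, over 5 collections). It passed with log values averaged over cells (limma adjusted p = 0.0357) and as a slope on log2 age (limma adjusted p = 0.0335). Cep85 was lower in all 6 later group means than in all 4 early ones, as were Ift122, Tctn3, Dync2li1 and Kif21b. These were 5 of 80 genes (6.25%, beside 6.32% of all genes), and 0 had the reverse order (beside 2.37%).

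Within IFT-A, the retrograde complex, Ift122 averaged 96.8 CPM at P2 and P8 and 39.8 CPM later (log2 difference -1.34, SE 0.43, limma adjusted p = 0.223). Its group means were 88.5 and 134 CPM at P2, 91.4 and 72.9 at P8, 41.4 and 51.1 at P21, 47.7 and 30.2 at P60, 53.6 and 14.8 in 2m controls, and 133 CPM in rods. Ift140 ranged from 0 to 55 CPM over the control groups with no order by age, and Ift43 from 16.4 to 48.5 CPM. In IFT-B the genes went both ways, with Ift80 at 64.0 CPM early and 126 CPM later (log2 difference 1.06, limma adjusted p = 0.293). Ift88, the core subunit whose mouse mutant loses outer segments, ranged from 0.019 to 28.1 CPM in control cones and was at 60.3 CPM in rods. Neither Ift88 nor Ift122 met the minimum for the comparison of rods with cones. Ift172, which lies at the tip of the train, was between 8.56 and 42.1 CPM in control cones. Ift57 was between 6.01 and 81.1 CPM, Ift22, Ift52, Ift46, Ift74 and Ift27 between 2.21 and 122 CPM. Medians over the IFT-B genes hardly differed between early and later collections (log2 difference 0.00 over 11 genes), where all genes had -0.33.

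Among the motors, Kif3c averaged 58.7 CPM early and 114 CPM later (log2 difference 0.98, limma adjusted p = 0.295), while its partner Kif3a was at 92.0 and 84.9 CPM. Kif3b, the usual partner of Kif3a, ranged from 2.65 to 118 CPM over the control groups. Kif21b, a neuronal kinesin-4, averaged 61.5 CPM early and 20.6 CPM later (log2 difference -1.73, limma adjusted p = 0.255). The heavy chain of the cilium dynein, Dync2h1, was between 42.8 and 138 CPM in control cones with no order by age. All 4 cytoplasmic dynein genes had lower later means, where 33.2% of all genes had higher ones, and none of the 4 passed the test. Of the 4, Dync1li1 was still highest in the 2m collection (log2 mean of 8.41, beside 8.08 at P2 and 8.21 at P8). The heavy chain Dync1h1 was between 26.5 and 149 CPM, and the intermediate chain Dync1i2 between 14.1 and 34.9 CPM. Of the chaperonin-like pair, Bbs10 averaged 9.83 CPM early and 29.1 CPM later (log2 difference 2.10, limma adjusted p = 0.260). In the transition zone Cep290 was at 91.4 and 123 CPM at P2, 40.1 and 50.2 at P60 and 140 and 169 in 2m controls, so the 2 adult collections lay on either side of P2. Tctn2 was between 22.4 and 77.2 CPM in control cones. The median log2 difference over the 80 genes was -0.28, and -0.33 over all genes. TMM scaling moved both to about 0 (-0.00 and -0.05), so the direction over the set depended on the scaling. Among the 87 other cilium and motor genes, 0 passed the stage test at an adjusted p of 0.05, and at P2 Ick, a kinase of the cilium tip, was the single gene of 64 to meet the 4-fold rule, beside 2.66% of all genes higher (87.3 and 127 CPM against 6.60 to 29.2 CPM in adult controls).

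Superior and inferior cones were compared over the same 5 collections with collection as a block. No gene of 80 passed the limma test at an adjusted p of 0.05, beside 0% of all 10136 genes. At an unadjusted p below 0.05 there were 9 (11.25%, beside 7% of all genes). The quasi-likelihood test of edgeR called 0 (7 at an unadjusted p below 0.05), and DESeq2 called 1 higher in superior cones (Kif18a, beside 1.25% of all genes) and 3 lower (Cep290, Cep97 and Kif1b, beside 1.09%). At an unadjusted p below 0.05 edgeR had 4.11% of all genes. Superior means were above inferior means in 5 of 5 collections for Ift57, Kif1a and Kif4 (3.75%, beside 4.96% of all genes) and below for Cep290, Cep350 and Cep97 (3.75%, beside 2.4%). Cep97, which caps growing centrioles, and Cep350, a centriole-linked microtubule protein, are given here because of these values. Kif1a averaged 98.3 CPM in superior and 64.5 CPM in inferior cones (log2 difference 0.62, SE 0.24, limma adjusted p = 0.702, higher in 5 of 5 collections). Cep290 averaged 81.3 and 111 CPM (log2 difference -0.48, SE 0.20, limma adjusted p = 0.708, lower in 5 of 5). Kif21a, an axonal kinesin-4, averaged 113 and 67.0 CPM (log2 difference 0.73, SE 0.28, limma adjusted p = 0.702, higher in 4 of 5). Kif1b, a mitochondrial and vesicle kinesin, averaged 127 and 172 CPM (log2 difference -0.43, SE 0.18, limma adjusted p = 0.708, lower in 4 of 5).

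**Figure D4:**
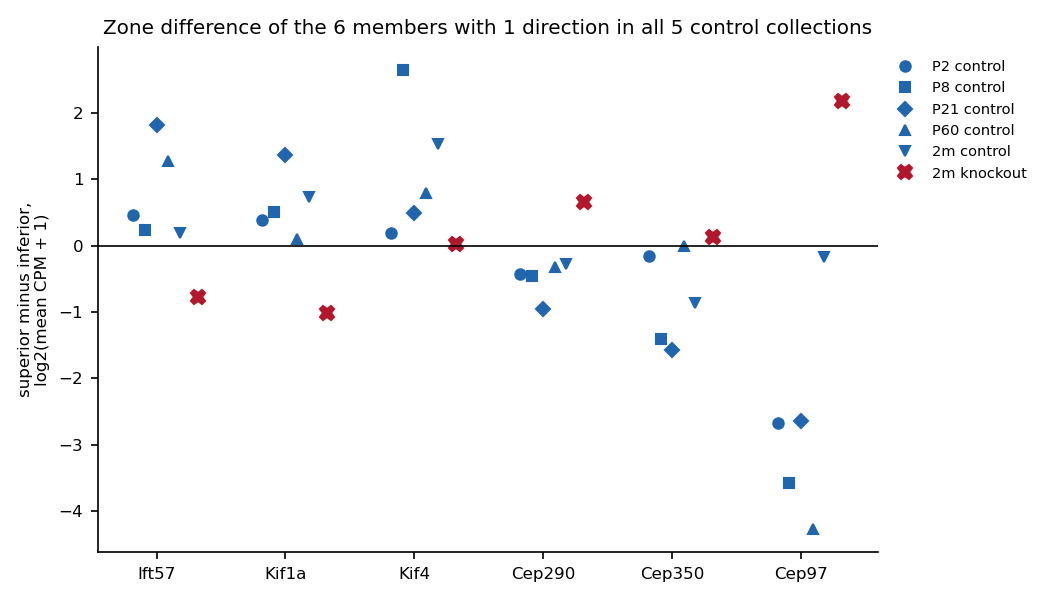
Superior minus inferior difference in log2(mean CPM + 1) for the 6 genes with the same direction in all 5 control collections; blue symbols are the control collections and the red cross the 2m knockout, and the line marks no difference. The knockout difference was on the other side of 0 for Ift57, Kif1a, Cep290, Cep350 and Cep97, and at 0.03 for Kif4.

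In knockout cones the zone difference of 5 of these 6 genes was opposite to that of the controls. It was -0.77 for Ift57, -1.01 for Kif1a, 0.65 for Cep290, 0.14 for Cep350 and 2.18 for Cep97 on the log2 scale. Of all genes with superior higher in 5 of 5 control collections, 43.1% were opposite in the knockout, and 42.8% of those with inferior higher. With 1 knockout collection, the difference between genotypes was not tested.

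In rods the BBSome gene Bbs7 stood apart. It averaged 838 CPM in rods, against 68.5 and 187 CPM in 2m control cones and 98.2 and 34.2 CPM at P60 (superior and inferior). Against a 4-fold limit in both zones and both adult collections, Bbs7 was the 1 gene of 26 that was higher (log2 ratios of 3.59 and 2.16 against 2m and 3.08 and 4.58 against P60), beside 1.16% of 3790 genes. The rods fell into 2 sets for it. Of 29 rods, 12 held between 406 and 7638 CPM, and the other 17 held between 1.6 and 36.2 CPM, with a median of 6.44 CPM over all 29. A rod of the low set counts as over 1 CPM all the same. The mean without the highest rod was 595 CPM. In 2m controls 12 of 53 superior and 18 of 50 inferior cones were over 100 CPM, up to 513 and 2051 CPM.

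**Figure D5:**
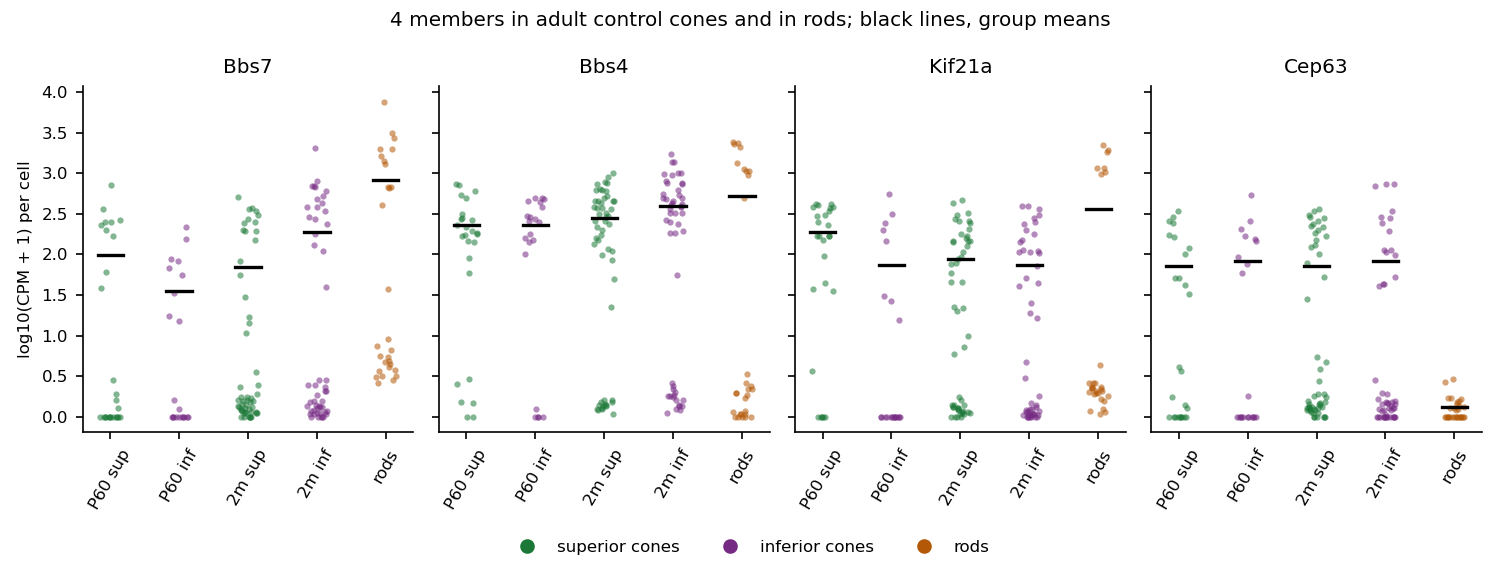
Log10(CPM + 1) in each cell for 4 genes in P60 and 2m control cones (green superior, purple inferior) and in rods (orange); black lines are group means. Rods form a high set (406 to 7638 CPM) and a low set (1.6 to 36.2 CPM) for Bbs7, and lie near 0 for Cep63.

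Other BBSome genes had high means in few rods. Bbs4 averaged 528 CPM in rods against 230 to 399 CPM in adult control cones, with 10 of 29 rods over 100 CPM and a median of 1.20 CPM. Bbs5 averaged 166 CPM in rods against 60.2 to 129 CPM, with 4 of 29 rods over 100 CPM. Bbs1 was lower in rods (25.7 CPM against 32.2 to 168 CPM) and over 1 CPM in 3 of 29. Bbs2 averaged 71.4 CPM in rods, and 0.129 CPM without 1 rod of 2066 CPM. Bbs9 averaged 129 CPM and was over 1 CPM in 4 of 29 rods. Neither chaperonin-like gene met the minimum, with Bbs10 at 0.126 and Bbs12 at 0.395 CPM in rods, and both between 27.4 and 119 CPM in adult control cones. Kif21a averaged 357 CPM in rods against 72.8 to 186 CPM, with 7 of 29 rods over 100 CPM.

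Lower in rods were 2 of 26 genes, Cep63 and Cep44, beside 17.8% of all genes. Cep63, which acts in centriole duplication, averaged 0.301 CPM in rods and 70.4 to 83 CPM in adult control cones. Its highest rod held 1.88 CPM, while 6 to 15 cones of each adult control group were over 100 CPM. Cep44, needed for centrioles to mature into centrosomes, was listed at 0 in all 29 rods, which by counting error alone allows up to 10.3% of rods with a read of it (3 of 29) and does not bound the rods that express it, and at 15.5 to 35.4 CPM in adult control cones. Kif3a was over 1 CPM in 2 of 29 rods (21.0 CPM on average) and in 24% to 47.6% of adult control cones. Ift20 averaged 10.1 CPM in rods, and 0.354 CPM without 1 rod of 284 CPM, against 41.1 to 76.9 CPM in adult control cones. The gate gene Cep290 was at 186 CPM in rods and 40.1 to 169 CPM in adult control cones. Over all 82 genes, the median log2 ratio of rods was -1.21 and -1.13 against 2m controls (all genes, -1.01 and -0.81). Against P60 controls it was -0.82 and -0.54 (all genes, -0.95 and -0.80). The set thus lay below all genes against 2m controls and above them against P60 controls.

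Of the 87 other cilium and motor genes, 49 met the minimum. Of these, 5 were lower in rods, a smaller share than the 17.8% of all genes, and 0 were higher. The 5 were Lztfl1 and Mkks (both listed with the BBSome and its partners), the dynactin gene Actr1a, and Rpgr and Ahi1 of the transition zone. Rpgr, the X-linked retinitis pigmentosa gene of the connecting cilium, was at 0 in rods and 51 to 83.8 CPM in adult control cones. Of RFX factors, some of which drive cilium genes, 4 were measured (Rfx1, Rfx3, Rfx5 and Rfx7 among 10 genes on that list). Rfx2 and Rfx4 are not in the table. The 4 measured factors summed to 19 CPM in rods and 65.8 to 121 CPM in cones. Only Rfx5 met the minimum, and it was called lower. Whether Rfx5 acts on cilium genes in these cells was not tested. Log2 ratios of rods ran from -0.81 to 0.27 for Rfx1, -2.42 to 2.46 for Rfx3 and -4.43 to -1.81 for Rfx7. Müller glia markers were high in the rod libraries. All 4 that met the minimum were called higher, and the 6 measured markers summed to 2395 CPM against 89.8 to 378 CPM in adult control cones, with Rlbp1 at 867 CPM and Glul at 416 CPM. Sox9 and Aqp4 of that list are not in the table. The part of glial RNA in the rod values was not tested.

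Cep83os ends 11 bases from the start coordinate of Cep83 on chromosome 10, and whether reads were counted by strand is not given in the sources used here. How reads that reach across this boundary were assigned is therefore not known. Means in control cones were 40.1 to 97.5 CPM for Cep83os and 2.72 to 29.2 CPM for Cep83. The 2 genes left out of the tests for low means, Kif13b and Cep128, were at or below 24.2 CPM in every group.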

How the data were processed

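Single-cell libraries were made from picked cells with SMART-Seq v4 and ThruPLEX kits, per the labels' protocols, and the submitters' processing notes name bcl2fastq 2, STAR 2.7.3a, MACS2 2.2.7.1 and the builds GRCm38 and mm10. The authors deposited CPM per gene, scaled to the whole library, and the 10390 genes of the table hold 80.0% to 93.0% of each library. The p-value of each receptor-bound region is the one the authors deposited. How reads were counted, whether by strand, and how genes were filtered is not given in the sources used here. Whole reads could be recovered for 100% of values (tolerance 0.1 read). Each sample is 1 cell, so group means were the unit: log2(mean CPM + 1), limma 3.58.1 in R 4.3.3 for zone and stage (means of at least 5 CPM, Benjamini-Hochberg over 10136 genes), and a rule of size without a test for the knockout, rods, P2 and P8. P-values measure the spread between collections only. All 82 symbols matched RefSeq gene intervals (GRCm38.p6). Alternatives covered pseudocount, filter, averaging, TMM scaling, edgeR 4.0.16, DESeq2 1.42.0 and left-out collections. Leaving out 13 doubtful cells, and counting the near-identical pair as 2, were chosen after seeing the data. Scripts were tested on simulated data. The genes and lists were chosen with earlier results of these data known. Genes named with values were those past a test or size rule, the highest of each prefix, and a list of IFT, BBS, kinesin, dynein and transition zone genes. Any other gene with values was chosen after its values were seen, and Kif17, Kif7, Kif5a, Kif11, Kif23, Dync1i1, Cep55 and Tctn1 of that list were not analysed here.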

Additional observations from a re-analysis of the deposited data

Results flagged for a closer look

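Superior minus inferior differences (log2 scale) of 41 named genes were searched for a collection far from the other 4, and 2 were found. Chance alone gives about 1 in 20, so 2 of 41 is near the share expected by chance. For Cep290 the P21 difference was -0.96, while the others lay between -0.45 and -0.27. For Ift140 the P60 difference was 3.19, while the others lay between -2.03 and -0.67, and Ift140 was listed at 0 in inferior P60 cones.

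In 5 genes every control collection differed between zones in 1 direction and the knockout in the other. Among all genes with 1 direction in 5 of 5 control collections, the knockout was opposite for 43.1% (superior higher) and 42.8% (inferior higher). The knockout difference was -0.77 for Ift57 (controls 0.18 to 1.81), -1.01 for Kif1a (0.10 to 1.37), 0.65 for Cep290 (-0.96 to -0.27), 0.14 for Cep350 (-1.57 to -0.00) and 2.18 for Cep97 (-4.27 to -0.18). The difference between genotypes was not tested.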

How the results depend on the processing

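No paired analysis was possible because the replicate number in the labels only names a cell and ties no cell to another. The zone test compared zones within collections instead. Leaving out each control collection in turn gave 0 calls for zone and 0 for stage every time. Shares of all genes tested under the same setting stand in brackets. DESeq2 gave 1 higher (1.25%) and 3 lower (1.09%) for zone, and 1 higher (2.24%) and 1 lower (1.14%) for stage. Averaged logs (3.22%) and the slope on log2 age (1.12%) each gave 1 lower for stage. In the knockout, P60 controls alone gave 3 of 41 higher (Cep290, Dync1h1, Ift43; 3.86%) and 3 lower (Kif1bp, Cep170b, Bbs12; 3.92%). There 2m controls alone gave 2 lower (with Kif2a; 2.22%), averaged logs 2 lower (with Kif1bp; 2.34%), and a 4-fold limit 0 lower (0.363%). In rods the lower count was 8 of 26 at 2-fold (28.3%), 8 with averaged logs (29.8%), 1 with a minimum mean of 20 CPM (17.5%) and 1 with a pseudocount of 10 (11.2%). At P2 the higher count was 5 of 53 at 2-fold (10.7%), 0 with averaged logs (4.8%), 0 with TMM (1.6%) and 0 with a pseudocount of 10 (1.35%), and the lower count was 1 at 2-fold (4.46%). Thinning to 800000 reads gave rods a median of 12 genes with at least 1 read, a different count from that over 1 CPM. Windows of 10 kb gave 17 genes near bound regions (20.7%, beside 21.2% of all placed genes). They gave 15 genes near induced regions (18.3%, beside 17.7%). Windows of 100 kb gave 21 genes near suppressed regions (25.6%, beside 19.6%). The zone difference of Kif1b turned from -0.43 to 0.000718 with averaged logs. Where a count moved with a changed limit, window or set of controls, the change is in the rule itself. For the other settings the cause was not tested. The other 108 values of these main results stayed on their side. For the 9 genes at an unadjusted p below 0.05 in each test, 132 of 133 zone values and 152 of 152 stage values kept their direction, and the other genes were not followed in this way. A promoter motif search, a window around start sites and comparisons per length were not run, as no sequence, strand or length was at hand.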
